A study of Homo sapiens with 8 samples.

Results

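The clustered protocadherins are neural cell-surface adhesion proteins encoded by 3 neighbouring gene arrays on the long arm of chromosome 5. They were followed here in THP-1 cells, a human acute monocytic leukemia line, by RNA sequencing of 8 libraries. All genes of the expression table with an Ensembl identifier and an alpha, beta or gamma protocadherin symbol were taken, pseudogenes left out, which gave 53 of 60664 genes. The alpha cluster holds 15 of them (PCDHA1 to PCDHA13, PCDHAC1 and PCDHAC2), the beta cluster 16 (PCDHB1 to PCDHB16) and the gamma cluster 22 (PCDHGA1 to PCDHGA12, PCDHGB1 to PCDHGB7, and PCDHGC3 to PCDHGC5). Parental THP-1 cells and decitabine-resistant (DAC-resistant) THP-1 cells, labelled wild type in genotype, each received vehicle (DMSO) or 1 µM DAC for 6 days, with 2 libraries labelled as biological replicates in each of the 4 groups. The DAC-resistant cells were a population selected by repeated pulses of DAC and then kept without the drug before the experiment, so their DMSO group had also met DAC earlier. Nothing in the labels says that the replicates were separate cultures, so the p-values measure the spread between these libraries. In bulk RNA, fewer cells that express a gene and less RNA per cell cannot be told apart.

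Clustered protocadherins form a cell-surface barcode. Each neuron switches on its own few members, the proteins join in combinations, and cells or branches that carry the same combination recognise each other, which in many neurons leads to self-avoidance. In the alpha and gamma clusters each variable first exon has its own promoter and is spliced to constant exons shared by the whole cluster, whereas each beta gene stands alone. A promoter is chosen when CTCF and cohesin join it to a distant enhancer, and DNA methylation of that promoter keeps it silent. The C-type members (PCDHAC1, PCDHAC2, PCDHGC3, PCDHGC4 and PCDHGC5) lie at the ends of their clusters and follow rules of their own. DAC is a cytosine analogue that traps DNA methyltransferases and lowers DNA methylation in dividing cells. Methylation was not analysed here.

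In the hg38 build used for the files, with gene limits from the GENCODE annotation, the alpha genes lie in chr5:140786136-141012347, each starts at its own first exon and all end at the same base. The beta genes run from PCDHB1 at chr5:141051374-141059346 to PCDHB15 at chr5:141245395-141249365. The gamma genes begin with PCDHGA1 at chr5:141330514-141512975 and share their last exons. All 53 are on the plus strand. The values are FPKM (fragments scaled for exon length and for the number counted in the library). The exon length behind an FPKM includes the shared exons. Bases that no other gene on the same strand covers made up 43.4 to 78.6% of the length in the alpha cluster. They made up 35.6 to 72.5% in the gamma cluster and 90.5 to 100% in the beta cluster. With genes on either strand counted, some members had fewer such bases, for example 7 of 5595 in PCDHA1 and 2301 of 4098 in PCDHB2. How reads in shared exons were counted is not given in the sources used here, so levels are compared between libraries rather than between clusters.

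The libraries held 28777672 to 33491125 recovered gene reads. The totals to which the FPKM had been scaled, found from the steps of the values, were lower, at 27480502 to 31916835, and the cause was not tested. At those totals 1 read on a gene of 5 kb is worth 0.00627 to 0.00728 FPKM. These genes are sparse: summed over the family, 2777 to 5036 reads fell on them per library. The comparisons used limma on log2(FPKM + 0.1) over the 26751 genes that reached 0.1 FPKM in 2 or more libraries. A gene was called at a Benjamini-Hochberg adjusted p under 0.05 and a change of at least 1 on the log2 scale, and "raised" and "lowered" below mean called. The filter kept 35 members: 2 alpha (PCDHA3 and PCDHAC2), 15 beta (all but PCDHB1) and 18 gamma (all but PCDHGA3, PCDHGA8, PCDHGB1 and PCDHGB4). PCDHA3, PCDHGB5 and PCDHGB6 entered through the DAC-treated parental libraries alone. Their number, and their calls in comparisons that use those libraries, are no evidence of a change. Because the filter removed 13 alpha genes, reads recovered from the FPKM were also tested with limma-voom on the 28191 genes with at least 10 reads over all libraries, which kept 50 members. That test was chosen after seeing the data and is named wherever it is used. PCDHA1 met its limit of 10 reads only through the parental DAC libraries, so its calls there are no evidence of a change. A fold change on the FPKM + 0.1 scale understates the change of such low genes.

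**Figure D1:**
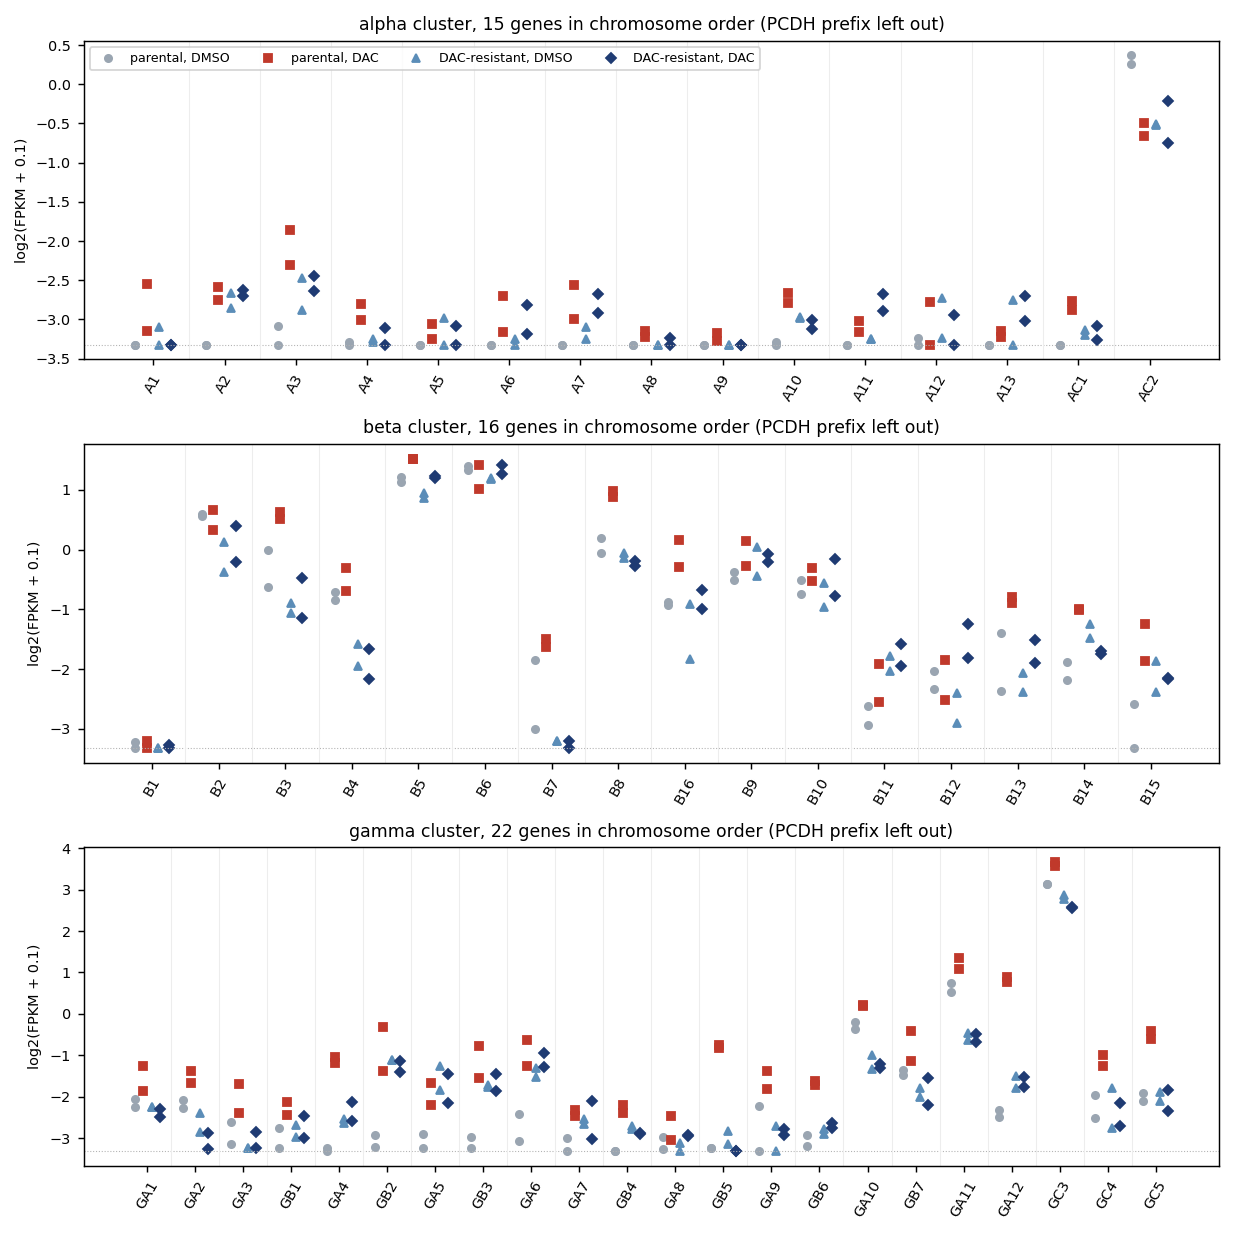
Level of each clustered protocadherin in the 8 libraries, as log2(FPKM + 0.1), with members in chromosome order within the alpha, beta and gamma clusters; each point is 1 library and the dotted line marks 0 FPKM. Most gamma members and nearly all alpha members sat near 0 in parental DMSO libraries and higher in the parental DAC libraries, while PCDHAC2 went the other way.

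Most of the promoters held the core of a conserved sequence element. RefSeq windows on GRCh38.p14, from 250 bases before to 50 bases after a gene's start, matched 47 of 53 members. PCDHA3, PCDHA13, PCDHB6, PCDHB11, PCDHGA12 and PCDHGC5 had no entry. The conserved sequence element of these promoters has a CGCT core. Searched on the strand of the gene, CGCT was in 46 of the 47 windows, against 54.3% of 35114 promoters of the same length (70% on either strand). Longer forms of the element differed between the clusters. The letters GATGTCGCT were in 9 of 13 alpha windows and in 0.074% of all promoters (0.105% on either strand). GGTGGCGCT was in 13 of 14 beta windows and in 0.302% of all promoters (0.501% on either strand). CGCTGT with CCA 3 bases further on was in 12 of 20 gamma windows, 6 of 13 alpha windows and 0 beta windows, against 0.202% of all promoters (0.31% on either strand). It can overlap the alpha form, since both hold the core. In 12 of the 47 windows none of these longer forms was found on the gene's strand, among them those of PCDHGB2, PCDHGB3, PCDHGA10 and PCDHGA11, which are called in the comparisons and are not shown. A match of letters alone does not show that a promoter carries the element, for the C-type members as for the others, and this was not tested. The members below are some on which the results turn and whose windows match a longer form: 40 bases of the gene's strand, 5′ to 3′, with the CGCT core in capitals.

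PCDHA2, chr5:140794779-140794818: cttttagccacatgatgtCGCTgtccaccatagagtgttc
PCDHA10, chr5:140855839-140855878: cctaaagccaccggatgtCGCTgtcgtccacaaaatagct
PCDHAC2, chr5:140966363-140966402: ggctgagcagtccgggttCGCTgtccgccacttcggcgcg
PCDHB3, chr5:141100391-141100430: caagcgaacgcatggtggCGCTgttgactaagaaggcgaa
PCDHB14, chr5:141223261-141223300: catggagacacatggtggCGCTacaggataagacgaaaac
PCDHB15, chr5:141245312-141245351: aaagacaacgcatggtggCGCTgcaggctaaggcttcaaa
PCDHGA4, chr5:141354958-141354997: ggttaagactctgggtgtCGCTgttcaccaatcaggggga
PCDHGA5, chr5:141364105-141364144: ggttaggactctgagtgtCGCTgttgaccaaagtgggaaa
PCDHGA6, chr5:141373833-141373872: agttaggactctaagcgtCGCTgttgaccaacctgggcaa
PCDHGB5, chr5:141397861-141397900: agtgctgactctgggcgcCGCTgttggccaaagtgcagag
PCDHGB6, chr5:141407922-141407961: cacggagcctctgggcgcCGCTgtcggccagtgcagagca
PCDHGC3, chr5:141475878-141475917: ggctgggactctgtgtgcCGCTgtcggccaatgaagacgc

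CpG sites, where DNA methylation sits, were few in these windows: a median of 7 per 300-base window over the 47 members, with a range of 2 (PCDHGA4) to 27 (PCDHAC1), against a median of 14 over all promoters. The 4 C-type members with an entry held 15 to 27 CpG, with 15 in PCDHAC2 and 18 in PCDHGC3, whereas the other alpha members held 3 to 9 and the other gamma members 2 to 16. The members raised by DAC in parental cells did not stand apart in this count: the 8 with an entry had a median of 7.5 CpG and the 22 that were tested and not raised had a median of 8. Where RefSeq gave a second start for a gene, the first listed window was used.

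Summed over each cluster, the gamma genes and the alpha genes other than PCDHAC2 were higher with DAC in parental cells. The gamma sum was 11.9 and 12.1 FPKM in the parental DMSO libraries and 22.8 and 22.1 FPKM with DAC, a ratio of the group means of 1.87. Without the C-type genes it went from 3.09 and 3.11 FPKM to 9.97 and 8.48 FPKM, a ratio of 2.97. The gamma B genes went from 0.346 and 0.392 FPKM to 2.52 and 2.02 FPKM, a ratio of 6.15, and the gamma A genes from 2.75 and 2.72 FPKM to 7.45 and 6.47 FPKM, a ratio of 2.55. The groups did not overlap in any of these sums. The beta sum was 9.67 and 11.2 FPKM with DMSO and 14 and 14.2 FPKM with DAC, a ratio of 1.35. The alpha sum was 1.16 ± 0.0658 FPKM with DMSO and 1.09 ± 0.0132 FPKM with DAC (SD, n = 2), in which PCDHAC2 was lower and the sum of the other alpha genes went from 0.0139 to 0.525 FPKM. In DAC-resistant cells the same ratios of DAC to DMSO were 0.88 for gamma, 1.16 for beta, 1.16 for alpha and 1.45 for alpha without PCDHAC2. By reads, the last was 1.34 (95% counting interval 1.05 to 1.73). With 2 libraries in each group no exact permutation test of a sum can go below p = 0.333, so the sums are given as a description.

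**Figure D2:**
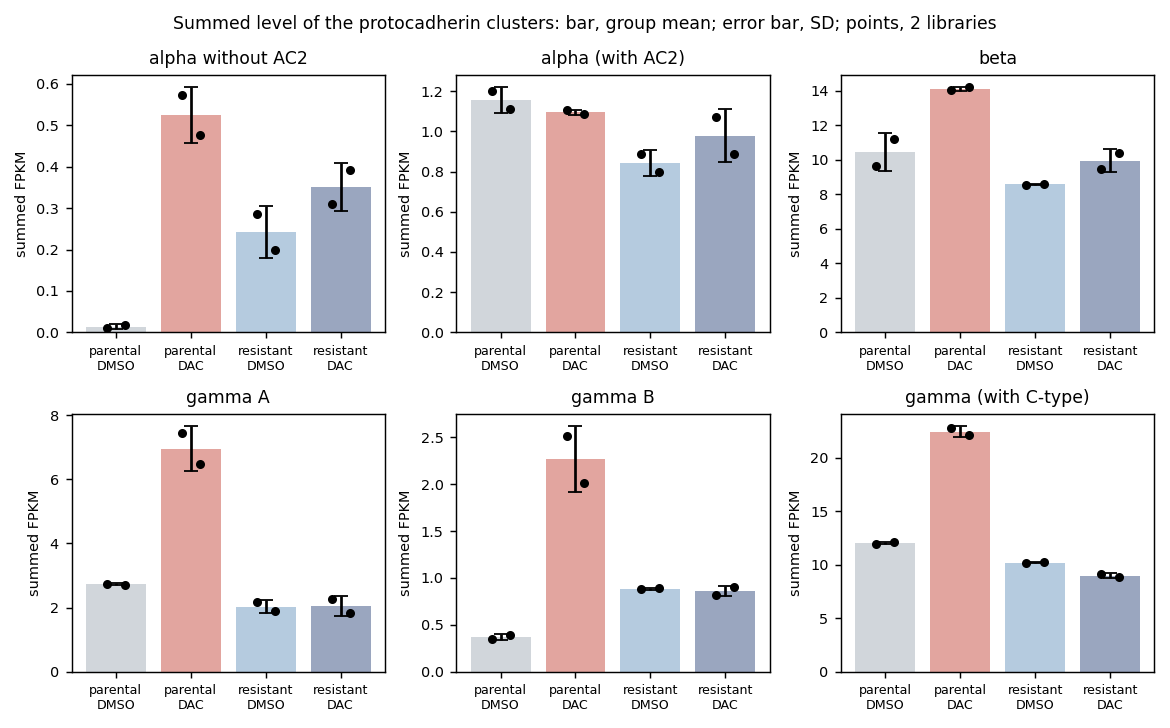
Summed FPKM of the alpha genes without PCDHAC2, all alpha genes, beta, gamma A, gamma B and all gamma genes in the 4 groups; bars are group means from 0, error bars the SD of 2 libraries and points the libraries. Gamma B stood at 0.369 FPKM with DMSO and 2.27 FPKM with DAC in parental cells and at 0.886 and 0.86 FPKM in DAC-resistant cells with DMSO and DAC.

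The number of detected members differed as well. Counting members with more than 3 reads in both libraries of a group, 24 of 53 were present in parental DMSO cells, and DAC-treated parental cells had 44. In DAC-resistant cells the numbers were 36 with DMSO and 40 with DAC. All 22 gamma members passed this limit in parental cells with DAC, against 10 with DMSO. Of the 53 members, 11 had no read in either parental DMSO library (10 alpha genes and PCDHGB4), and 0 had no read in both DAC libraries. Of 39592 genes above 0 in any library, 50.3% passed the same limit in parental DMSO cells, 55.3% in parental DAC cells, while DAC-resistant cells had 48.2% (DMSO) and 48.6% (DAC). Members with any read numbered 37 and 38 in the parental DMSO libraries, 52 in each parental DAC library and 46 to 48 in the DAC-resistant libraries, where all genes with any read numbered 27437 and 27326, 30957 and 30999, and 26069 to 26403. The parental DAC libraries were the shallowest of the 8, with 28787628 and 28777672 recovered gene reads.

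In parental cells DAC raised 11 of the 35 tested members and lowered 0, against 12.5% of all tested genes raised and 4.05% lowered. These were 8 of 18 gamma genes, 2 of 15 beta genes and 1 of 2 alpha genes. Among them PCDHA3, PCDHGB5 and PCDHGB6 were tested only through the parental DAC libraries, so their calls add no support. The median change of the tested members was 0.86 on the log2 scale (1.16 in gamma, 0.54 in beta) beside 0.11 over all tested genes. Without parental DMSO replicate 1 the count was 7. Quantile normalization, which shifted the median of all genes in this comparison by -0.19 on the log2 scale, gave 7 raised and 1 lowered. The read-based test raised 24 of 50 members (8 alpha, 3 beta and 13 gamma genes) and lowered 1, against 14.2% of all genes raised and 3.77% lowered. Over all 53 members, including those under the filter, both DAC libraries were above both DMSO libraries in 45, and in 33.6% of all genes with a value above 0.

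**Figure D3:**
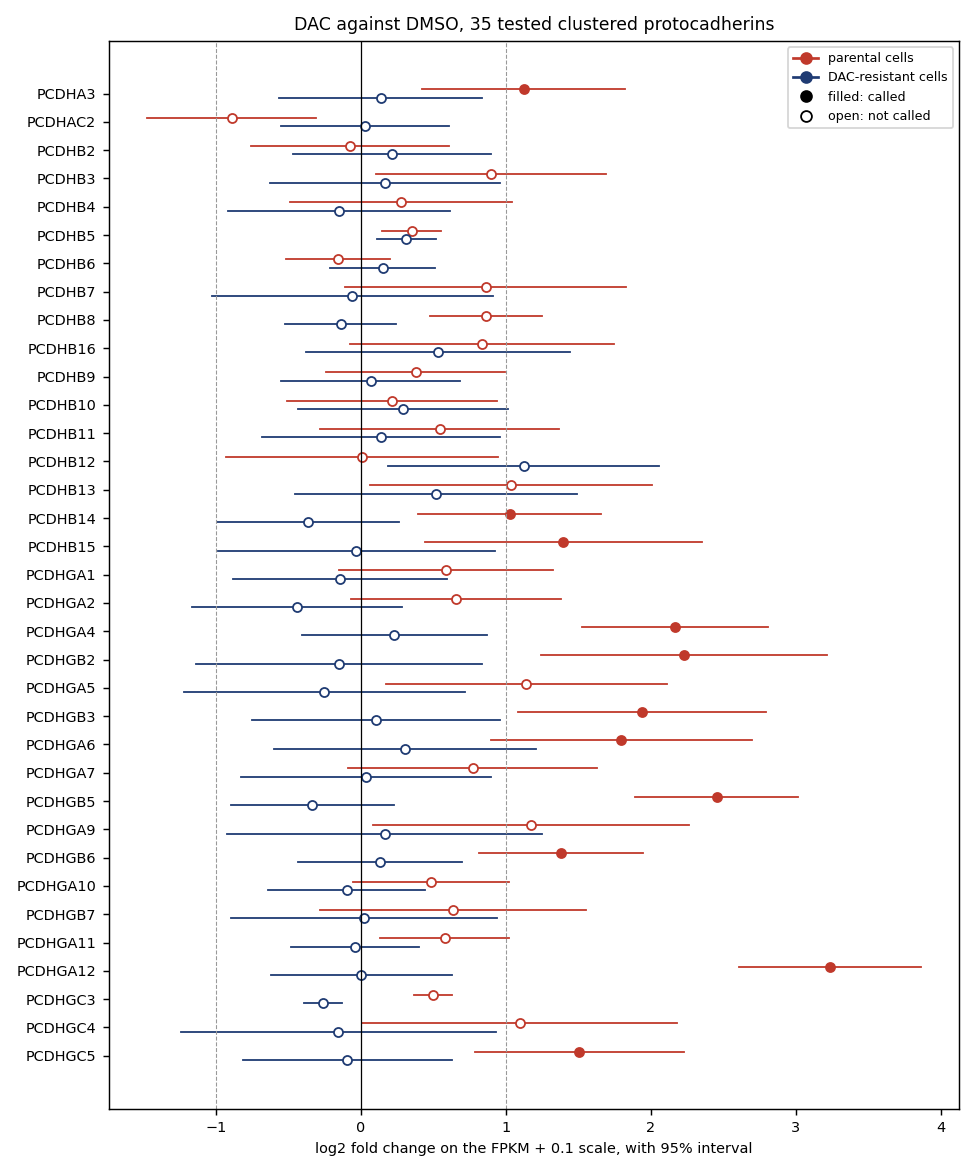
Log2 fold change of DAC against DMSO for the 35 tested members, with 95% intervals from limma, in parental and DAC-resistant cells; filled points were called, and dashed lines mark a change of 1. In parental cells 32 of 35 estimates lie above 0, with PCDHGA12 at 3.24, and in DAC-resistant cells no point is filled.

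PCDHGA12, the last gamma A gene, had the largest log2 change on the FPKM + 0.1 scale. It had 12 and 15 reads in the parental DMSO libraries and 217 and 235 with DAC, or 0.0773 and 0.101 FPKM against 1.61 and 1.75 FPKM. The depth-corrected ratio of reads was 18.9 (95% counting interval 12.8 to 29), and the log2 change on the FPKM + 0.1 scale was 3.24 ± 0.25 (SE, adjusted p = 0.000258). This change was called under each alternative tried. PCDHGB5 came next on that scale, although its ratio of reads was higher. It had 1 read in each parental DMSO library and 63 and 67 with DAC, a read ratio of 73.3 (19.9 to 612) and a log2 change of 2.45 ± 0.23 (SE, adjusted p = 0.000494). PCDHGB5 passed the filter only through these DAC libraries, so its adjusted p adds no support. Intervals of read ratios cover counting error only.

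Several raised genes lie close together in the gamma array, where the order from 5′ to 3′ is PCDHGA4, PCDHGB2, PCDHGA5, PCDHGB3 and PCDHGA6. PCDHGA4 had 0 and 1 reads with DMSO and 52 and 46 with DAC, a read ratio of 111 (19.4 to 4412) that rests on the single DMSO read, and a log2 change of 2.17 ± 0.26 (SE, adjusted p = 0.00135). PCDHGB2 had 5 and 1 reads with DMSO and 93 and 38 with DAC, a log2 change of 2.23 ± 0.40 (SE, adjusted p = 0.00666). For PCDHGB2 the DAC libraries differ from each other by more than 2 times in reads, yet both lie far above DMSO. PCDHGB3 went from 1 and 4 reads to 32 and 63 (log2 change 1.94, adjusted p = 0.0066) and PCDHGA6 from 5 and 21 reads to 118 and 70 (1.79, adjusted p = 0.0108). The call of PCDHGA6 was lost without parental DMSO replicate 1 and without parental DAC replicate 1. PCDHGA5, between them, had 1 and 6 reads with DMSO and 34 and 19 with DAC. Its change of 1.14 on the log2 scale missed the threshold (adjusted p = 0.0676), and it was raised in the read-based test (adjusted p = 0.0244). PCDHGB6, further along, went from 7 and 2 reads to 38 and 42, with a log2 change of 1.38 (adjusted p = 0.00487). Like PCDHGB5, it passed the filter only through the parental DAC libraries.

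PCDHGB4 did not reach the FPKM filter. It had no read in either parental DMSO library and 22 and 17 with DAC, which is at least 7.33-fold higher when 3 reads per DMSO library are taken as the floor, and it was raised in the read-based test (adjusted p = 0.000599). PCDHGB4 and PCDHGB5 share part of their sequence with other members. Of the 50-base stretches of their own exons, 21.3% and 19.3% are also found in another member. Reads from such stretches could be split between members. PCDHGA12 shares 9.75% of its stretches, and PCDHGB3, PCDHGC3, PCDHGC4 and PCDHGC5 share 0.

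The gamma C-type genes were unequal in level and response. PCDHGC3 carried most of the cluster: with DMSO it held 70.7 and 70% of the gamma reads in parental cells, 1488 and 1423 reads at 8.64 and 8.64 FPKM, and with DAC 1769 and 1884 reads at 11.8 and 12.6 FPKM. That is a change of 0.50 ± 0.05 on the log2 scale (SE, adjusted p = 0.000847), above the spread between libraries and below the fold set for a call. PCDHGC5 was raised, from 21 and 25 reads to 90 and 77 (log2 change 1.51 ± 0.29, SE, adjusted p = 0.009). PCDHGC4 had 12 and 24 reads with DMSO and 43 and 55 with DAC, and its change of 1.10 on the log2 scale did not pass (adjusted p = 0.105). Of the gamma A genes with the highest levels in DMSO, PCDHGA11 had 1.58 and 1.35 FPKM with DMSO and 2.45 and 2.04 FPKM with DAC (log2 change 0.58, adjusted p = 0.049), and PCDHGA10 had 0.774 and 0.681 FPKM with DMSO and 1.05 and 1.06 FPKM with DAC (0.48, adjusted p = 0.141). With DAC, PCDHGC3 held 51.2 and 56.6% of the gamma reads.

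The beta genes, which share no exons with each other, were mostly detected already: 13 of 16 had more than 3 reads in both parental DMSO libraries. PCDHB6 and PCDHB5 led the cluster in all 4 groups. PCDHB6 had 2.42 and 2.55 FPKM in parental cells with DMSO and 2.57 and 1.91 FPKM with DAC, which overlap (log2 change -0.16, 95% interval -0.52 to 0.20). PCDHB5 had 2.08 and 2.22 FPKM with DMSO and 2.76 and 2.77 FPKM with DAC, a change of 0.35 ± 0.08 on the log2 scale (SE, adjusted p = 0.0195) that is small but larger than the spread. Only PCDHB14 and PCDHB15 were raised. PCDHB14 went from 17 and 23 reads to 49 and 48 (log2 change 1.03 ± 0.26, SE, adjusted p = 0.0229), and PCDHB15 from 0 and 8 reads to 19 and 35 (1.40 ± 0.39, SE, adjusted p = 0.0334). Both calls were lost without parental DMSO replicate 1 and without parental DAC replicate 2, and that of PCDHB14 also without parental DAC replicate 1. PCDHB15 further lost its call without either DAC-resistant DAC library. PCDHB8 had 0.86 and 1.04 FPKM with DMSO and 1.86 and 1.75 FPKM with DAC (log2 change 0.86, adjusted p = 0.00685, under the fold), and 45.5% of its 50-base stretches recur in another member, mainly PCDHB13. PCDHB1, at the 5′ end of the array, had 0 to 2 reads in each library and was not tested.

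The alpha cluster split in a different way. The 14 alpha genes other than PCDHAC2 had 3 and 4 reads in all in the parental DMSO libraries, and 123 and 105 with DAC. The ratio of reads was 36.8 (95% counting interval 17.6 to 92.5). PCDHA3 gained most reads: 0 and 4 with DMSO, 36 and 21 with DAC, a log2 change of 1.12 ± 0.28 (SE, adjusted p = 0.0243). This call was lost without either parental DMSO replicate and without parental DAC replicate 1. PCDHA3 also passed the filter only through the parental DAC libraries, so its call adds no support. PCDHA10 went from 1 and 0 reads to 25 and 19, PCDHA4 from 1 and 0 to 9 and 16, and PCDHA2 from 0 and 0 to 11 and 8, at least 3.57-fold higher with the same floor. In the read-based test 8 of the 13 alpha genes it kept were raised, and PCDHA10 had the smallest adjusted p among them, 0.00167. PCDHA1 is among the 8, and 11 and 2 of its 16 reads lay in the parental DAC libraries. It was kept only through them, so its call adds no support. Reads were spread thinly: the C-type gene PCDHAC1 had 9 and 7 reads with DAC and 0 with DMSO, and PCDHA8 and PCDHA9 had 1 to 3 reads in each parental DAC library.

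PCDHAC2 was the exception. In the parental DMSO libraries it had 233 and 204 reads, 98.7 and 98.1% of all alpha reads, and 90 and 103 reads with DAC. Its level went from 1.19 and 1.09 FPKM to 0.531 and 0.608 FPKM, a log2 change of -0.89 ± 0.24 (SE, adjusted p = 0.0281) that is just under the fold set for a call. In the read-based test it was lowered (log2 change -1.0, adjusted p = 0.00502). PCDHA1 is uncertain: all but 7 of its exon bases also belong to another gene on either strand, and whether strand was used in counting is not given.

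**Figure D4:**
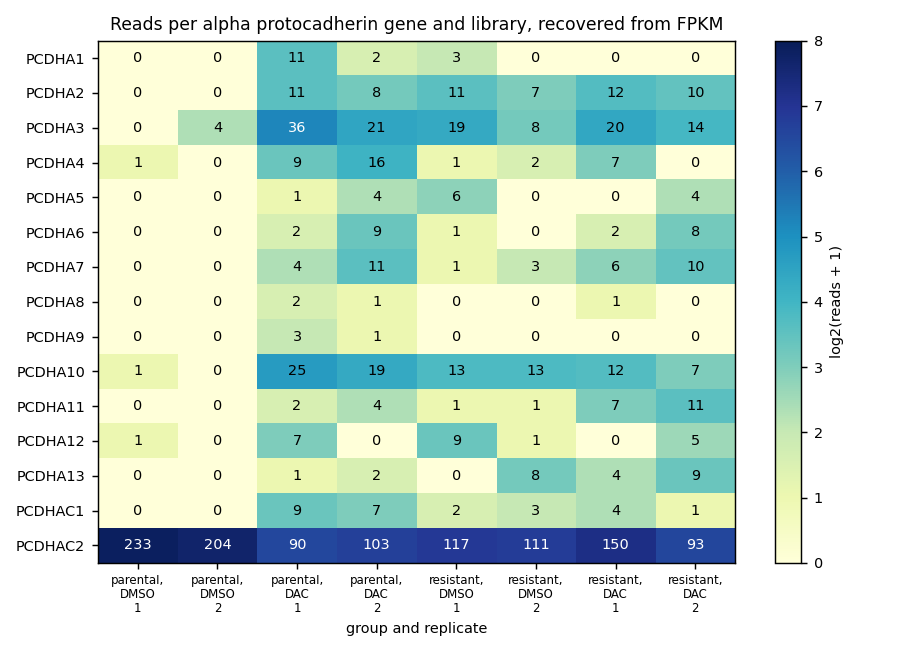
Reads of each alpha gene in each library, recovered from FPKM, with the number printed in the cell and colour on a log2(reads + 1) scale. Apart from PCDHAC2 the parental DMSO columns hold 3 and 4 reads in all, against 123 and 105 with DAC and 46 to 79 in the DAC-resistant libraries.

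In DAC-resistant cells limma called 0 of the 35 tested members with DAC, against 0.232% of all tested genes raised and 0.191% lowered. limma-voom on reads also called 0 of the 50 members it kept, against 0.128% of all genes raised and 0.0497% lowered. At an unadjusted p under 0.05, which takes no account of the number of members tested, there were 3 members. They were PCDHB5 from 1.82 and 1.73 to 2.25 and 2.2 FPKM (log2 change 0.31), PCDHB12 from 0.0899 and 0.0343 to 0.323 and 0.185 FPKM (1.12), and PCDHGC3 from 6.76 and 7.26 to 5.75 and 5.93 FPKM (-0.26). The 95% intervals still allow a moderate change in many members: that of PCDHGA12 ran from -0.62 to 0.63 and that of PCDHGB2 from -1.14 to 0.83. PCDHGA12 had 39 and 28 reads with DMSO and 39 and 29 with DAC. PCDHGB5 had 2 and 6 reads with DMSO and 0 and 0 with DAC. The alpha genes other than PCDHAC2 had 67 and 46 reads with DMSO and 75 and 79 with DAC.

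With DMSO alone, DAC-resistant cells had 4 members raised and 1 lowered against parental cells, beside 6.15% of all tested genes raised and 8.1% lowered. Both directions together, 5 of 35 tested members is a share near that of all tested genes. The 4 raised genes, PCDHGB2, PCDHGA5, PCDHGB3 and PCDHGA6, are consecutive in the gamma array. PCDHGB2 had 55 and 52 reads in DAC-resistant cells against 5 and 1 in parental cells (log2 change 1.95 ± 0.40, SE, adjusted p = 0.012). PCDHGA5 had 58 and 31 against 1 and 6 (1.52 ± 0.39, adjusted p = 0.0281), PCDHGB3 29 and 29 against 1 and 4 (1.35 ± 0.35, adjusted p = 0.0275), and PCDHGA6 76 and 59 against 5 and 21 (1.32 ± 0.37, adjusted p = 0.0353). In these genes both DAC-resistant libraries lay above both parental ones, which adds little for genes already called. The same held for 22.6% of all genes with a value above 0. PCDHGA4, next to them on the 5′ side, had 11 and 9 reads against 0 and 1, which did not pass (log2 change 0.69, adjusted p = 0.0941) but did in the read-based test (adjusted p = 0.0162), and PCDHGA7 on the 3′ side had 10 and 12 against 0 and 4 (0.57, adjusted p = 0.275). The number called was 5 in all, and 3 or 2 without parental DMSO replicate 1 or 2 and 2 without either DAC-resistant DMSO replicate. Each of the 4 raised calls was lost in at least 1 of these refits, and that of PCDHGA6 also without either DAC-resistant DAC library. Upper quartile scaling gave 4 raised and 2 lowered.

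PCDHGA11 was the lowered gene, with 0.545 and 0.63 FPKM in DAC-resistant cells against 1.58 and 1.35 FPKM in parental cells (log2 change -1.19 ± 0.18, SE, adjusted p = 0.00362). This call stood with each library left out. PCDHGA10 was also lower, at 0.401 and 0.296 FPKM against 0.774 and 0.681 FPKM (-0.89, adjusted p = 0.0231), as was PCDHGC3, at 6.76 and 7.26 FPKM against 8.64 and 8.64 FPKM (-0.30, adjusted p = 0.00686), both under the fold. In the alpha cluster the genes other than PCDHAC2 had 16.2 times the parental reads (95% counting interval 7.63 to 41.3), and PCDHAC2 had 117 and 111 reads against 233 and 204 (log2 change -0.83, adjusted p = 0.0394, under the fold). The read-based test raised 9 of 50 members here and lowered 3, against 6.64% and 9.18% of all genes in that test, and 3 of the raised were alpha genes, PCDHA2, PCDHA3 and PCDHA10. No beta gene was called by the main rule. DAC-resistant cells with DMSO held 46.2% of the summed FPKM that DAC-treated parental cells had for these 14 alpha genes, and 39.1% for gamma B.

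**Figure D5:**
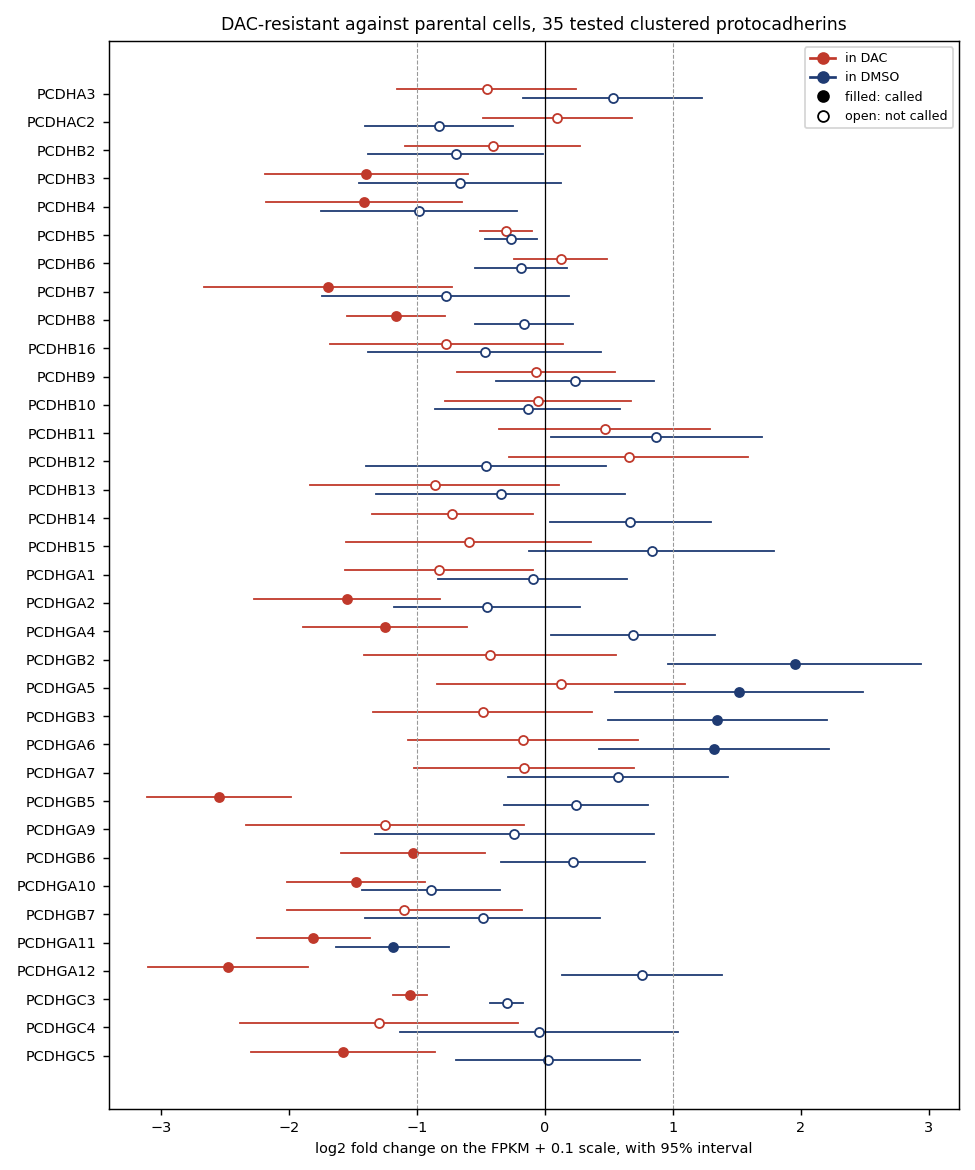
Log2 fold change of DAC-resistant against parental cells for the 35 tested members, with 95% intervals from limma, in DMSO and in DAC; filled points were called and dashed lines mark a change of 1. With DMSO the filled points to the right are PCDHGB2, PCDHGA5, PCDHGB3 and PCDHGA6, and with DAC all 13 filled points lie to the left.

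Under DAC, 13 members were lowered in DAC-resistant against parental cells and 0 raised, against 16.7% of all tested genes lowered and 6.62% raised. They were 9 gamma genes (PCDHGA2, PCDHGA4, PCDHGA10, PCDHGA11, PCDHGA12, PCDHGB5, PCDHGB6, PCDHGC3 and PCDHGC5) and 4 beta genes (PCDHB3, PCDHB4, PCDHB7 and PCDHB8). PCDHGB5 had no read in either DAC-resistant library against 63 and 67, at least 24.6-fold lower with the floor of 3 reads per library (adjusted p = 0.000295). The calls of PCDHGB5 and PCDHGB6 add no support here, since both passed the filter only through the parental DAC libraries. PCDHGA12 had 39 and 29 reads against 217 and 235 (log2 change -2.47 ± 0.25, SE, adjusted p = 0.000524). PCDHGA11 was at 0.523 and 0.613 FPKM against 2.45 and 2.04 FPKM (log2 change -1.81, adjusted p = 0.000458) and PCDHGA10 at 0.302 and 0.329 FPKM against 1.05 and 1.06 FPKM (-1.47, adjusted p = 0.00239). PCDHGC5 had 29 and 15 reads against 90 and 77 (-1.58, adjusted p = 0.00597), PCDHGA2 8 and 1 against 40 and 53 (-1.54, adjusted p = 0.00662) and PCDHGA4 20 and 10 against 52 and 46 (-1.25, adjusted p = 0.00937). Among the beta genes, PCDHB3 was at 0.616 and 0.35 FPKM against 1.33 and 1.45 FPKM (-1.39, adjusted p = 0.014) and PCDHB8 at 0.729 and 0.772 FPKM against 1.86 and 1.75 FPKM (-1.16, adjusted p = 0.00158). PCDHGC3, the most abundant member, was at 5.75 and 5.93 FPKM against 11.8 and 12.6 FPKM (log2 change -1.05 ± 0.05, SE, adjusted p = 2.95e-05), and fell just short of the fold with 2 of the scalings tried. PCDHB4 stood at 0.123 and 0.214 FPKM against 0.516 and 0.708 FPKM with DAC, and with DMSO at 0.158 and 0.236 against 0.456 and 0.511 FPKM (log2 change -0.98, adjusted p = 0.0542). PCDHB7 had 0 and 1 reads in DAC-resistant cells with DAC and 1 and 1 with DMSO, against 26 and 23 in parental cells with DAC and 3 and 20 with DMSO. By contrast, PCDHGB2 with 43 and 52 reads against 93 and 38, PCDHGA5 with 49 and 22 against 34 and 19, PCDHGB3 with 27 and 39 against 32 and 63, and PCDHGA6 with 107 and 75 against 118 and 70 overlapped between the lines. The calls of PCDHB3, PCDHB4, PCDHB7 and PCDHGB6 were each lost when single DAC libraries were left out: PCDHB7 without any 1 of the 4, PCDHB3 without either parental one or DAC-resistant replicate 2, PCDHB4 without parental replicate 2 or DAC-resistant replicate 1, and PCDHGB6 without replicate 2 of either line. Quantile normalization, which shifted the median of all genes here by 0.23, gave 2 raised and 7 lowered, and scaling to TPM shifted it by 0.10. The read-based test lowered 19 of 50 members and raised 0, against 19% and 6.41% of all genes. This comparison shares its parental DAC libraries with the comparison of DAC and DMSO in parental cells.

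The test of the difference between the DAC effects of the 2 lines called 9 members, all with a smaller effect in DAC-resistant cells, against 10.6% of all tested genes in that direction and 4.07% in the other. The 9 were PCDHB8, PCDHB14, PCDHGA4, PCDHGA12, PCDHGB2, PCDHGB3, PCDHGB5, PCDHGB6 and PCDHGC5. Of these, PCDHGB5 and PCDHGB6 were tested only through the parental DAC libraries, so their calls add no support. The difference, DAC-resistant minus parental, was -3.23 log2 units for PCDHGA12 (SE 0.36, adjusted p = 0.00149) and -2.79 for PCDHGB5 (SE 0.32, adjusted p = 0.00174). PCDHGA4, PCDHGA12 and PCDHGB5 were called with each library left out, and the other 6 lost the call in at least 1 such refit. The count was 4 without parental DMSO replicate 1, 3 and 4 without DAC-resistant DMSO replicates 1 and 2, and 4 and 5 without DAC-resistant DAC replicates 1 and 2. Quantile normalization, with a shift of 0.18 in the median of all genes, gave 3 members with a smaller effect and 1 with a larger effect. In the read-based test 17 of 50 members had a smaller effect and 1 a larger one, against 9.24% and 3.75% of all genes. For PCDHGC3 the difference of -0.76 log2 units (SE 0.08, adjusted p = 0.000977) was under the fold. PCDHAC2 had a difference in the other direction, 0.92 (adjusted p = 0.0903), that passed in the read-based test (1.04, adjusted p = 0.0398).

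Genes that are known to act on these clusters were not called with DAC. Of 25 genes for CTCF, cohesin and its loaders, DNA methylation, heterochromatin and demethylation, 0 were called with DAC in either line. Of all tested genes, 12.5% were raised and 4.05% lowered in parental cells, and 0.232% and 0.191% in DAC-resistant cells. In parental cells the changes of the 25 genes ran from -0.67 (TET1) to 0.44 (TET2) on the log2 scale. CTCF, which anchors the promoter loops, had 8.59 and 8.72 FPKM with DMSO and 9.44 and 10.8 FPKM with DAC in parental cells (log2 change 0.22, adjusted p = 0.0487, under the fold). TET1, which oxidises methylcytosine, was the only one of the list called between the lines. Of all tested genes, 6.15% were raised and 8.1% lowered there with DMSO, and 6.62% and 16.7% with DAC. It had 1.54 and 1.77 FPKM in DAC-resistant against 0.43 and 0.535 FPKM in parental cells with DMSO (log2 change 1.59 ± 0.19, SE, adjusted p = 0.00122), and 1.73 and 1.75 against 0.246 and 0.284 FPKM with DAC (2.34, adjusted p = 0.000176). DNMT1, the maintenance methyltransferase that DAC traps, was at 21.9 and 22.2 FPKM with DMSO and 26.2 and 26.7 FPKM with DAC in parental cells, and at 23.2 and 23.1 and then 17.5 and 17.3 FPKM in DAC-resistant cells.

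Among 13 cytoplasmic partners, the kinases and WAVE-complex proteins to which protocadherin tails signal, DAC raised 0 and lowered 1 in parental cells, beside 12.5% and 4.05% of all tested genes. The lowered gene was FYN, a Src-family kinase, which went from 10.7 and 10.5 FPKM to 3.69 and 3.53 FPKM (log2 change -1.53, adjusted p = 1.05e-05). In DAC-resistant cells FYN was 11.7 and 11.6 FPKM with DMSO and 18.4 and 17.0 FPKM with DAC, where it was raised against parental cells (2.26, adjusted p = 1.9e-06), and the difference between its DAC effects was called (2.13, adjusted p = 1.93e-05). WASF3, a WAVE protein, had 0 and 1 reads in parental and 29 and 19 in DAC-resistant cells with DMSO (log2 change 1.27, adjusted p = 0.0103), and 0 and 0 against 28 and 17 with DAC (1.24, adjusted p = 0.00826). CYFIP2, a subunit of the WAVE complex, was lowered in DAC-resistant cells with DMSO, at 1.92 and 2.28 FPKM against 4.51 and 4.56 FPKM (-1.08, adjusted p = 0.000563). The difference between its DAC effects was called as well (1.38, adjusted p = 0.00129). Of 11 non-clustered protocadherins elsewhere in the genome, 8 were tested. PCDH7 and PCDH17 were raised in parental cells with DAC, and PCDH12 was lowered, from 2.41 and 2.18 FPKM to 0.863 and 0.815 FPKM. Of all tested genes, 12.5% were raised and 4.05% lowered in that comparison. PCDH17 went from 0.00376 and 0 FPKM to 0.364 and 0.247 FPKM and was listed at 0 to 0.00389 FPKM in DAC-resistant cells. It passed the filter only through the parental DAC libraries, so its calls in this and the other comparisons below add no support. PCDH7 had 0.0772 and 0.0269 FPKM in parental cells with DMSO, 0.297 and 0.342 FPKM with DAC, and 1.23 and 1.33 FPKM in DAC-resistant cells with DMSO, where it was raised against parental cells (log2 change 3.20, adjusted p = 0.000254). PCDH9 was called only in the difference between the DAC effects (-1.12, adjusted p = 0.0485). PCDH12 was also lowered in DAC-resistant against parental cells with DMSO (-2.55, adjusted p = 0.000878). With DAC, PCDH1, PCDH12 and PCDH17 were lowered between the lines and PCDH7 was raised, with log2 changes of -1.14, -1.13, -1.98 and 1.68. Of all tested genes, 16.7% were lowered and 6.62% raised between the lines with DAC. The difference between the DAC effects was also called for PCDH7 (-1.52), PCDH17 (-1.98) and PCDH12 (1.42).

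Of 14 genes beside the clusters, 13 were tested, and DAC raised 2 in parental cells, a share near the 12.5% of all tested genes. They were SLC25A2, a mitochondrial ornithine carrier that lies between the beta and gamma clusters and went from 0.0223 and 0 FPKM to 0.488 and 0.206 FPKM (log2 change 1.94, adjusted p = 0.00667), and RELL2, which went from 3.35 and 4.61 FPKM to 9.66 and 11 FPKM (1.37, adjusted p = 0.00354). SLC25A2 was listed at 0 in all 4 DAC-resistant libraries. It passed the filter only through the parental DAC libraries, so its calls in this and the other comparisons below add no support. TAF7, a subunit of the general transcription factor TFIID in the same gap, was at 60.9 and 62.3 FPKM with DMSO and 105 and 106 FPKM with DAC (0.77, adjusted p = 1.11e-05, under the fold). No neighbour was called with DAC in DAC-resistant cells. ARAP3 was lowered in DAC-resistant against parental cells with DMSO (-1.08, adjusted p = 0.000185). With DAC, 4 of 13 were lowered between the lines, against 16.7% of all tested genes: SLC25A2, RELL2 (-1.93, adjusted p = 0.000667), ARAP3 (-1.61, adjusted p = 2.54e-05) and TAF7 (-1.23, adjusted p = 1.64e-06). The difference between the DAC effects was called for SLC25A2 (-1.94, adjusted p = 0.0309) and RELL2 (-1.26, adjusted p = 0.0235), with a smaller effect in DAC-resistant cells, and in the other direction for DELE1 (1.17, adjusted p = 0.000326). The 6 pseudogenes of the clusters had 0 to 61 reads per library.

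Markers of other cell types also differed between the groups, in patterns that varied by cell type. All 8 monocytic markers were expressed in each library. DAC raised 2 of them in parental cells (LYZ and MPO), and 5 were lowered in DAC-resistant against parental cells with DMSO. Of all tested genes, DAC raised 12.5% in parental cells. Between the lines with DMSO, 6.15% of all tested genes were raised and 8.1% lowered. Their sum was 210 to 211 FPKM in parental cells with DMSO, 283 to 286 FPKM with DAC, and 120 to 131 FPKM in DAC-resistant cells. Of 7 neuronal markers, where clustered protocadherins are typically found, 4 were tested and 1, STMN2, was raised in parental cells with DAC, while SNAP25 and MAP2 were raised in DAC-resistant against parental cells with DMSO. The neuronal sum was 0.169 to 0.283 FPKM in parental cells with DMSO, 0.525 to 0.62 FPKM with DAC and 1.14 to 1.54 FPKM in DAC-resistant cells. NEFL was listed at 0 in 7 of 8 libraries and GAP43 in 6. All 5 fibroblast markers were raised in parental cells with DAC, against 12.5% of all tested genes. Their sum went from 0.644 to 0.693 FPKM with DMSO to 10.5 to 11 FPKM with DAC, with 8.91 to 10.1 FPKM in DAC-resistant cells. LUM, DCN and COL3A1 were listed at 0 in both parental DMSO libraries. Both tested T-cell markers were raised as well. They passed the filter only through the parental DAC libraries, so these calls add no support. Of 6 plasma and B-cell markers, 4 were raised, against the same 12.5% of all tested genes. The sums were 0 and then 0.479 to 0.727 FPKM for T cells, and 5.73 to 6.27 and then 9.47 to 10.7 FPKM for plasma and B cells. In DAC-resistant cells these sums were 0 to 0.0751 FPKM and 7.32 to 8.11 FPKM. Both tested epithelial markers, KRT8 and KRT18, were raised in parental cells with DAC, with sums of 0.11 to 0.186 FPKM, then 1.45 to 1.93 FPKM, and 0.0645 to 0.195 FPKM in DAC-resistant cells. The part of other cell types in the protocadherin results was not tested.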

How the data were processed

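RNA was sequenced from 4 groups of THP-1 cells, 2 libraries each. Per the labels and the study's methods, the authors trimmed reads with Cutadapt 1.9.1, aligned them to hg38 with HISAT2 2.1.0, sorted them with SAMtools 1.6 and counted genes with HTSeq 0.13.5; the annotation release, strand setting and treatment of ambiguous reads are not given in the sources used here. The authors deposited FPKM multiplied by 1000, which were divided by 1000 here. Whole reads were recovered from FPKM with exon lengths of GENCODE 44: 87.1% of gene values came out whole within 0.02 reads, 4461 genes needed another length, and 170 are approximate. Among members, 51 were solved with the annotated length and 2 (PCDHA4 and PCDHGB6) with another. Replicate libraries shared no identical profiles and differed by more than sampling noise (mean chi-square 4.03 to 4.28 per gene).

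limma 3.58.1 (R 4.3.3) fitted 4 group means to log2(FPKM + 0.1) of genes that reached 0.1 FPKM in 2 or more libraries, with an intensity trend and Benjamini-Hochberg adjustment over all tested genes. Read ratios carry exact binomial 95% intervals. The text names up to 10 called members per comparison with the largest change, at least the 2 largest of each cluster, the most abundant member of each cluster, the C-type genes and PCDHB1. Of other lists it names called genes, with some more chosen after their values were seen, and gives most cell type markers as counts and sums. Members and lists were chosen with earlier results of these data known. The alternatives were other pseudocounts, filters, scalings, thresholds, a replicate block, limma-voom on reads and leaving out each library.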

Additional observations from a re-analysis of the deposited data

Results flagged for a closer look

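For 9 members the effects of DAC in the 2 cell lines differed by the test of the difference itself (limma, adjusted p under 0.05 and at least 1 log2 unit). Each effect was smaller in DAC-resistant cells. The differences, DAC-resistant minus parental, were -3.23 log2 units for PCDHGA12 (adjusted p = 0.00149), -2.79 for PCDHGB5 (adjusted p = 0.00174), -2.38 for PCDHGB2 (adjusted p = 0.0247), -1.94 for PCDHGA4 (adjusted p = 0.0111) and -1.84 for PCDHGB3 (adjusted p = 0.0366). They were -1.60 for PCDHGC5 (adjusted p = 0.0327), -1.39 for PCDHB14 (adjusted p = 0.0333), -1.25 for PCDHGB6 (adjusted p = 0.0331) and -1.0 for PCDHB8 (adjusted p = 0.0189). Since PCDHGB5 and PCDHGB6 passed the filter only through the parental DAC libraries, their calls add no support. PCDHGB2 and PCDHGB3 were also raised in DAC-resistant cells without DAC, at 55 and 52 reads and at 29 and 29 reads. PCDHGB5, PCDHGA12 and PCDHGA4 were not called there by limma, but their reads summed over both libraries were higher than in parental cells as well: 8 against 2 for PCDHGB5 (ratio 4.03, 95% counting interval 0.804 to 38.9), 67 against 27 for PCDHGA12 (2.50, 1.58 to 4.06) and 20 against 1 for PCDHGA4 (20.1, 3.22 to 834.5), which the read-based test raised (adjusted p = 0.0162). The remaining flagged members were not called there either. Their summed reads were 79 against 40 for PCDHB14, 17 against 9 for PCDHGB6, 47 against 46 for PCDHGC5 and 142 against 162 for PCDHB8. The counting intervals of PCDHGB5, PCDHGB6, PCDHGC5 and PCDHB8 included no difference. Whether the level without DAC bears on the size of the DAC effect was not tested.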

How the results depend on the processing

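Of 38 calls on single members over the 5 comparisons, 0 reversed under any alternative. The number kept was 38 with limma-voom on recovered reads, 35 with an unadjusted p of at most 0.01, 34 each with a pseudocount of 0.01, TPM and upper quartile scaling, 33 with the replicate block, 31 without a filter, 22 with quantile normalization and 4 with a pseudocount of 1, and all 10 that could be tested held with a filter of 1 FPKM. The fit to the compared libraries alone kept 25 of 29 calls and was not run for the difference between the effects, which needs all 8. A pseudocount of 1 FPKM shrinks the change of low genes by construction, and leaving out single libraries kept 26 to 30. For DAC in parental cells 11 members were called, 1 with a pseudocount of 1, 1 with the 1 FPKM filter, 25 with limma-voom at 10 reads and 7 to 13 with single libraries left out. For DAC in DAC-resistant cells the count was 0 under each alternative. Between the lines in DMSO it was 5, against 0 with a pseudocount of 1, 8 with 0.01, 1 with the 1 FPKM filter, 2 without a filter, 9 with limma-voom, 12 with limma-voom at 10 reads, and 2 to 5 with single libraries left out. Between the lines in DAC it was 13, against 2 with a pseudocount of 1, 6 with the 1 FPKM filter and 10 to 14 with single libraries left out. For the difference between the DAC effects it was 9, against 1 with a pseudocount of 1, 2 with the 1 FPKM filter, 4 with quantile normalization, 18 with limma-voom at 10 reads and 3 to 7 with single libraries left out. The 1 FPKM filter left 10 members to test. The cause of the other shifts was not tested. Nothing in the labels says that a replicate number marks a shared batch. Deviations of same-numbered libraries had correlations of -0.019 to 0.0043 over all genes and of -0.11 to 0.40 over the members, so the numbers were taken as names only. With the replicate block the counts were 10, 0, 4, 13 and 6 in the order above. It ended the call of PCDHB15 for DAC in parental cells and that of PCDHGA6 between the lines in DMSO. For the difference between the DAC effects it ended those of PCDHB14, PCDHGB6 and PCDHGC5.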
